A study of Mus musculus with 32 samples.

Results

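Genes that dip and recover are genes whose transcript level was low at some point between 4 and 24 h of GATA6-driven differentiation of mouse ES (mES) cells and high both before induction and at its end. They were selected on the measured values themselves. In the deposited table of log2 values, the mean of the 4 replicates was taken at each of 8 time points (0, 2, 4, 8, 16, 24, 48 and 96 h). A gene with a symbol was kept when its lowest mean lay at 4, 8, 16 or 24 h, was at least 1.2 below both the 0 h and the 96 h mean, and both of these were at least 5.5. This gave 85 genes among 9113 with a symbol and both end levels met, in a table of 54233 rows. The lowest mean was at 4 h in 13 genes, at 8 h in another 13, at 16 h in 25 genes and at 24 h in 34. The dip is what chose the genes, so its size and timing are described here and carry no test. The samples were 4 replicates per time point of KH2 mES cells, 1 line with a single-copy transgene that makes FLAG-tagged GATA6 and DsRed2 under a TET-responsive promoter. Before induction (0 h) the cells grew without Dox, in medium containing LIF together with inhibitors of MEK and GSK3. At every later time point the cells had been moved to serum medium with LIF and given Dox at 1 µg/ml, which was taken away after 12 h. The switch of medium thus coincided with the addition of Dox, there were no uninduced cells matched in time, and the share of either in any change cannot be told apart. The study's reporting summary says that replicates were done independently. Neither it nor the labels say whether they were separate cultures, so p-values measure the spread between these samples, part of which may be technical.

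GATA6 is the transcription factor that directs cells of the inner cell mass to primitive endoderm (PrE), while NANOG and SOX2 hold the alternative epiblast (Epi) state that mES cells resemble in culture. PrE cells are an epithelium that secretes a basement membrane and later gives rise to the yolk sac endoderm. Transcripts that go down and then come back in such a course can belong to either state, or to neither. In bulk RNA, fewer cells expressing a gene and less RNA of it per cell cannot be told apart.

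The 300 bases around the transcription start (250 before and 50 from it on) were available from RefSeq for 65 of the 85 genes, on GRCm38.p6. Shown here are the windows of the gene with the deepest dip at each lowest time among those with a window, and that of Insig1, the member from the sterol list. St6galnac3 was lowest at 4 h (chr3:153725084-153725383, minus strand), as was Insig1 (chr5:28071162-28071461, plus strand). Islr2 was lowest at 8 h (chr9:58204270-58204569, minus strand), Kit at 16 h (chr5:75574737-75575036, plus strand) and Cdkn1a at 24 h (chr17:29090729-29091028, plus strand). Capitals mark letters of the searched motifs on either strand, which were a GC box (GGGCGG), an E-box (CACGTG), a TEAD motif (GGAATG), an AP-1 motif (TGANTCA) and 5 others given with the counts. All are written 5′ to 3′ on the strand of the gene.
St6galnac3: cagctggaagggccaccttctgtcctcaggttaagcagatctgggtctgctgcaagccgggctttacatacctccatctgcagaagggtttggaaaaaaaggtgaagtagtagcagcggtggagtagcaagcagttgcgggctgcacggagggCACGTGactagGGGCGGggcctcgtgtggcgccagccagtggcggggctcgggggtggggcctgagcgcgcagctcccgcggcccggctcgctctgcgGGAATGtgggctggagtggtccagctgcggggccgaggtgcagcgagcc
Insig1: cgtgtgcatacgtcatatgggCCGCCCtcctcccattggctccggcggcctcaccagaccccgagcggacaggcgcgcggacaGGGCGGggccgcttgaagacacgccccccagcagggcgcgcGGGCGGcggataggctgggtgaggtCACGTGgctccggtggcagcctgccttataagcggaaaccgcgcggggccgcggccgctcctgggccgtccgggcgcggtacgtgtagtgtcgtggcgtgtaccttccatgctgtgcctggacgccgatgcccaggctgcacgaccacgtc
Islr2: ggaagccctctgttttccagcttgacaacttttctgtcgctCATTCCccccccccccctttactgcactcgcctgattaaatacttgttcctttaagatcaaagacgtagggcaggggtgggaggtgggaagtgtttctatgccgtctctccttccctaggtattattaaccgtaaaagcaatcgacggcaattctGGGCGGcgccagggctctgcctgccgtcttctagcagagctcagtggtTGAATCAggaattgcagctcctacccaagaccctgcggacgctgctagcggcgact
Kit: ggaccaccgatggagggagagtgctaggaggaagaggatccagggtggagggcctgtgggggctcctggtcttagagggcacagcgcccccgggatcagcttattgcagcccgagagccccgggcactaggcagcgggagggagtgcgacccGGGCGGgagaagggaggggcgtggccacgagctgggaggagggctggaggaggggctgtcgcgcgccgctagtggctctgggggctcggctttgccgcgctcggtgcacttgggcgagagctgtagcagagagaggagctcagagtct
Cdkn1a: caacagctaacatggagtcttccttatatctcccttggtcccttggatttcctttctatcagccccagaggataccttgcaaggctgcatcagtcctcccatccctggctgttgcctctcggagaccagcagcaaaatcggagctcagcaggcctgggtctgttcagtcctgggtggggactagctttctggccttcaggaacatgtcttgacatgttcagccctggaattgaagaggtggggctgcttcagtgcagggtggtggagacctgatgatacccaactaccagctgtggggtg

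The windows held few shared features. A GC box was found in 46 of 65 member windows (70.8%) and in 65.1% of the windows of all 10481 tested genes with one. An E-box stood in 8 member windows (12.3%, against 10.2% of all), a TEAD motif in 11 (16.9%, against 12.1%), and an AP-1 motif in 5 (7.69%, against 4.69%). The GATA motif, searched as AGATAA, was in 1 member window, that of Lad1 (1.54%, against 6.27%). An ETS motif, written CCGGAAG, was in 5 (7.69%, against 18%), a TATA box, searched with the letters TATAAA, in 3 (4.62%, against 6.92%), a sterol response motif, TCACNCCAC, in 2, those of Inava and Ctsf (3.08%, against 1.12%), and a cyclic AMP response motif, TGACGTCA, in 0 (against 3.31%). The median GC content was 64.3% in members and 61% in all windows. These are matches of letters in a short window, not binding sites, and no binding data were used here.

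The samples held 3190108 to 12301732 reads assigned to genes (median 8870662.5). The levels given below are normalized counts, recovered from the deposited log2 values by undoing the transformation, and they are not divided by transcript length, so they compare samples and not genes. The transgene was at 0 in all 4 samples at 0 h and had means of 618 at 2 h and 504 at 8 h. After Dox was taken away, its means were 65.7 at 16 h, 50.8 at 24 h and 115 at 96 h. Any part of this withdrawal in the low points at 16 and 24 h was not tested. Endogenous Gata6 went from 0.371 at 0 h to 2067 at 96 h. The summed level of 10 PrE markers ranged from 629 to 906 at 0 h and from 202100 to 278833 at 96 h, and that of 6 ES markers from 27924 to 29355 and from 3345 to 4009. The summed levels of 4 trophoblast, 4 mesoderm, 4 neural, 5 fibroblast and 5 2-cell-like markers did not exceed 718 in any sample, and Dcn, a defining fibroblast gene, was at 0 reads in every sample at 0 h and 96 h. The mesoderm sum was 98.2 to 449 (0 h), 3.99 to 20.7 (16 h) and 260 to 379 (96 h). Its marker T had means of 235, 3.11 and 0.265 at these times, so the sum at 96 h came from other markers. The neural sum was 329 to 490 (0 h), 8.48 to 27.3 (48 h) and then 209 to 268 (96 h), and the trophoblast sum 657 to 718 (0 h), 150 to 180 (16 h) and 163 to 345 (96 h). The part of such cells in the results was not tested. The libraries fell into replicates 1 and 2 and replicates 3 and 4: at a given time point, chi-square divided by its degrees of freedom had a median of 1.53 within these pairs and 10.3 between them. Values are therefore given in the order of replicates 1, 2, 3 and 4, and within each pair where a result turns on it.

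The dip had a median depth of 1.63 on the deposited log2 scale, with a range of 1.2 to 4.21, where depth is the smaller of the distances from the lowest mean to the 0 h and to the 96 h mean. The fall from 0 h had a median of 1.87 and the return to 96 h a median of 2.38. All 4 samples at the lowest time lay below all 4 at 0 h in 81 genes and below all 4 at 96 h in 85, as the choice of genes favours. The same was not counted over all genes, so nothing is read from these numbers. The exceptions at 0 h were Fignl2, Grk3, B3gnt3 and Cemip. The genes left and came back at different times. Among those lowest at 4 h, the median share of the return present at 48 h was 104.5%, against 90.3% for those lowest at 8 h, 63.7% for the 16 h genes and 40.5% for the 24 h genes. The 48 h mean was at or above the 0 h mean in 35 of 85 genes, 11 of the 13 lowest at 4 h and 4 of the 34 lowest at 24 h.

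**Figure D1:**
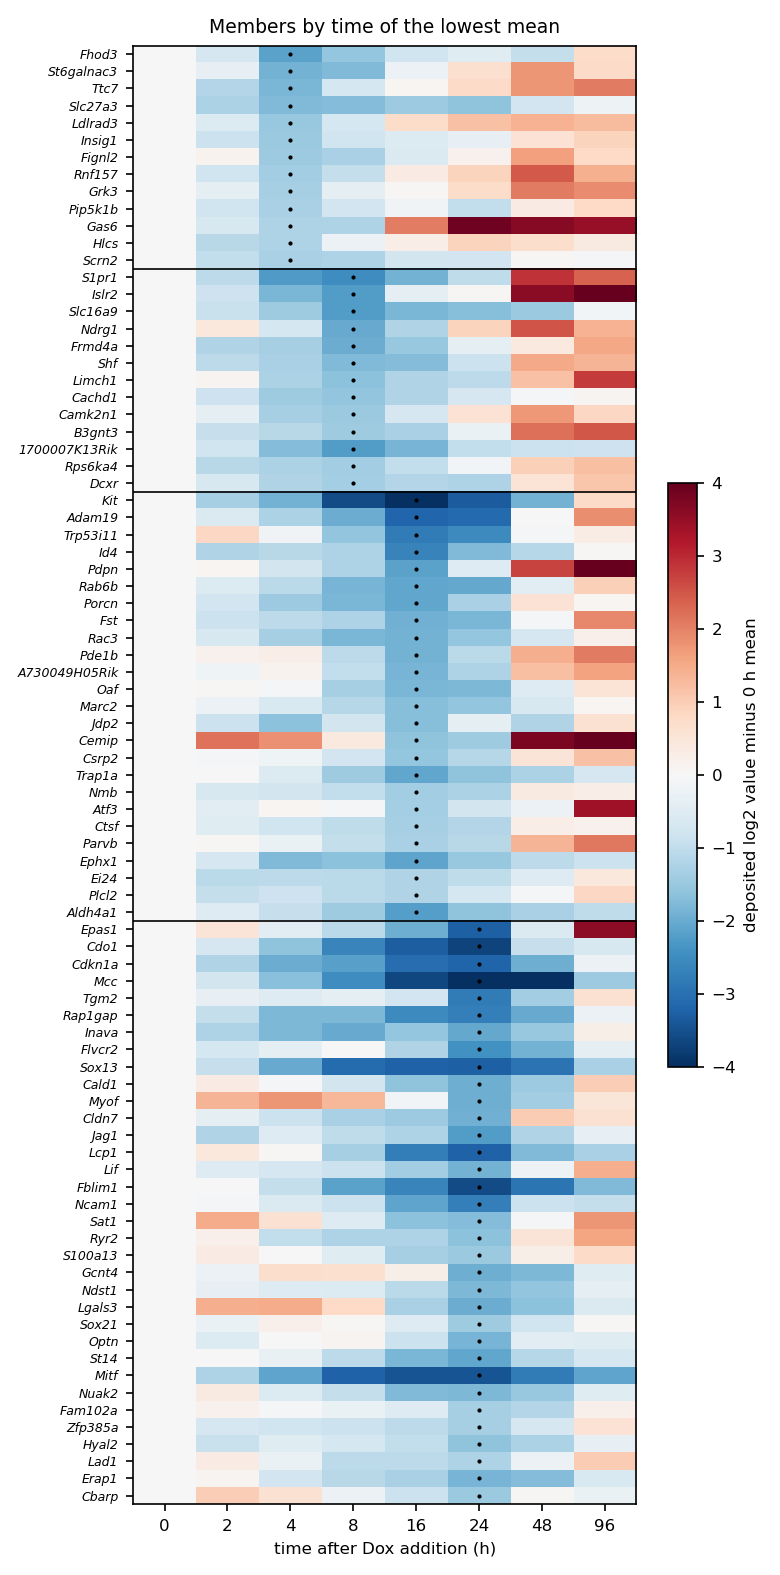
Heat map of the 85 genes (rows, grouped by the time of the lowest mean and ordered by depth) at 8 time points (columns, in h after Dox addition). Colour is the deposited log2 mean minus the 0 h mean (mean of 4 samples), drawn up to 4 in either direction, and a dot marks the lowest mean. Blue fills a diagonal from 4 h to 24 h, and most rows are red or white at 96 h.

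**Figure D2:**
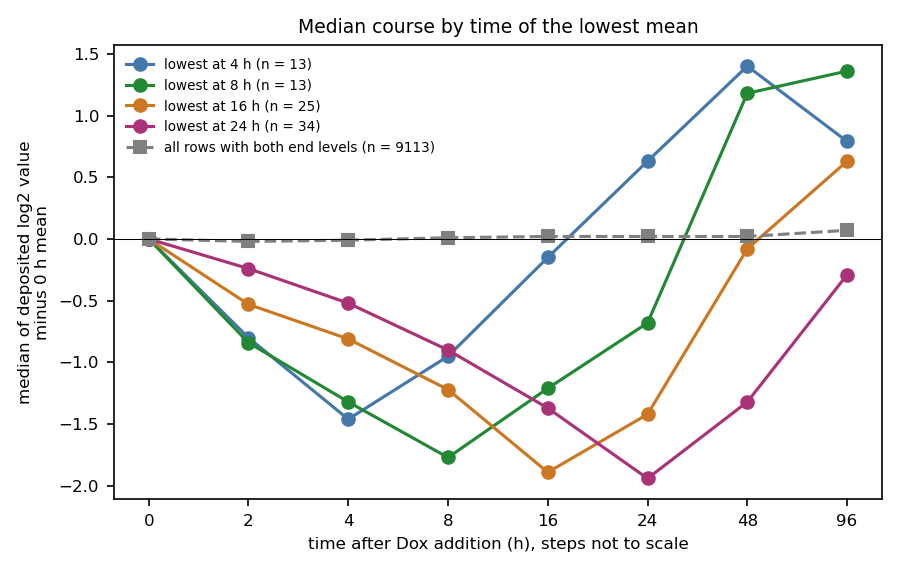
Median over genes of the deposited log2 mean minus the 0 h mean (y axis) at each time point (x axis, h after Dox addition) for the genes lowest at 4, 8, 16 and 24 h and for all 9113 genes with both end levels met (dashed). The medians at 96 h were 0.79, 1.36, 0.63 and -0.29 for the 4 groups, and the dashed line stayed between -0.02 and 0.07.

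At 2 h, a time point that the selection used only in requiring that the mean not be the lowest, 38 of 85 genes had all 4 samples below all 4 at 0 h, where 15.7% of all 15227 tested genes did. In 8 genes all 4 samples were above, against 16.5% of all tested genes. The 38 included 7 of the genes lowest at 4 h, 6 of those at 8 h, 13 of the 16 h genes and 12 of the 24 h genes. These counts are descriptions, since the 0 h samples took part in the selection. The 8 were Cbarp, Epas1, Lgals3, Myof, Ndrg1, Nuak2, Sat1 and Trp53i11. The 2 h mean alone was above that of 0 h in 23 genes, 13 of which were lowest at 24 h.

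**Figure D3:**
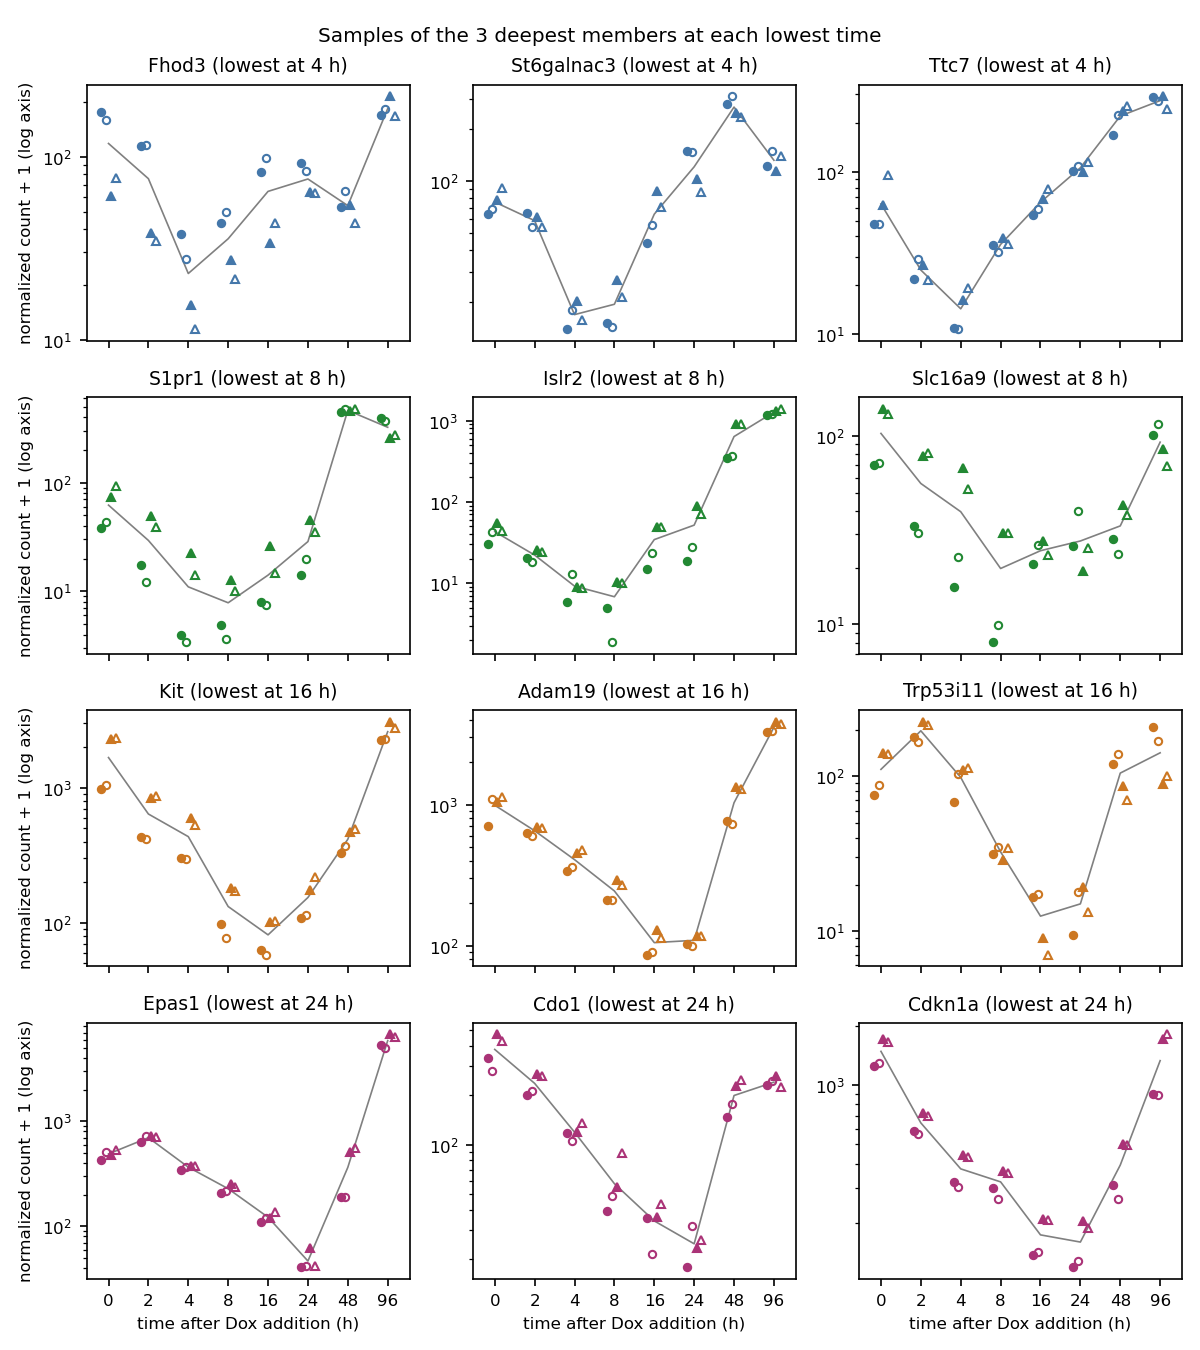
Normalized count plus 1 (y axis, log scale) in every sample at 8 time points (x axis, h after Dox addition) for the 3 deepest genes at each lowest time. Circles are replicates 1 and 2 and triangles replicates 3 and 4 (filled for the first of each pair), and the grey line joins the means. Kit runs from between 984 and 2357 at 0 h to between 57 and 102 at 16 h and back to between 2265 and 3097 at 96 h.

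The genes were sorted by role after their values were seen, so that every gene is accounted for. Receptors, ligands and their regulators formed the first group. Kit (chr5:75574916-75656722), the receptor tyrosine kinase for stem cell factor, had the deepest dip of all, 4.21. Its normalized counts were 984, 1048, 2316 and 2357 (0 h), 61.8, 57, 101 and 102 (16 h), and 2265, 2281, 3097 and 2784 (96 h). Replicates 3 and 4 were above replicates 1 and 2 throughout, by a wider margin at 0 h than at 96 h, and the 16 h samples lay far below both. The mean at 16 h was 4.8% of that at 0 h, and it stood at 24.7% at 48 h. S1pr1 (chr3:115710433-115715072), a receptor for sphingosine-1-phosphate, had 37.3, 42.1, 72.5 and 92.5 (0 h) and 3.93, 2.68, 11.7 and 9.12 (8 h), the last with as few as 3 reads. At 48 h it had 442, 475, 452 and 476, which was 755% of its 0 h mean, and at 96 h 393, 365, 254 and 275. The 24 h samples of S1pr1, 13.2 to 44.7, still overlapped those at 0 h, and the 48 h samples were all above them. Islr2, a leucine-rich repeat membrane protein, had 29, 42.1, 54 and 43.4 (0 h), 3.93, 0.893, 9.33 and 9.12 (8 h), where replicate 2 had 1 read, and 1169, 1201, 1309 and 1392 (96 h).

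Secreted factors showed both early and late low points. Gas6, the ligand of the TAM receptor kinases, had 69, 59.8, 53.2 and 39.7 (0 h), 20.8, 24.2, 14.4 and 20.8 (4 h), and 725, 735, 1101 and 1063 (24 h). Its 16 h samples, 161 to 369, were already all above those at 0 h. Lif, the cytokine that is also supplied in the medium, had 75.9, 83.6, 58.8 and 90.7 (0 h), 24, 21.3, 6.09 and 20.4 (24 h), and 211, 180, 252 and 239 (96 h). Fst, follistatin, which binds activin, had 646, 633, 427 and 434 (0 h), 76.5, 64.4, 254 and 255 (16 h), and 1895, 1888, 2116 and 2141 (96 h). The 16 h samples of Fst fell into the pairs: its depth was 3.09 in replicates 1 and 2 and 0.74 in replicates 3 and 4, so that the latter alone would not have met the threshold. Jag1, a ligand of Notch receptors, had 232, 264, 143 and 140 (0 h), 30, 34.4, 30.5 and 46.5 (24 h) and 118, 120, 207 and 159 (96 h). For Jag1 the 24 h samples lay below those of both ends, while the samples of the ends overlapped. Nmb, the peptide neuromedin B, had a mean of 50.9 at 0 h, 16.1 at 16 h and 64.9 at 96 h. In the annotation, 20.6% of its exon bases are also exon of Sec11a on the same strand, whose highest mean was 1372, so its reads are uncertain.

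Modifiers of these signals were among the members too. Porcn, the acyltransferase that Wnt proteins need for secretion, went from a mean of 276 ± 45.7 (SD, n = 4) at 0 h to 60.9 ± 4.21 at 16 h and 412 ± 43 at 48 h, above its 295 ± 36.4 at 96 h. Rap1gap, which switches off the GTPase RAP1, had 138, 149, 135 and 123 (0 h), 19.2, 20.7, 14.2 and 11.4 (24 h), and 154, 145, 79.1 and 101 (96 h). Grk3, a kinase of G-protein-coupled receptors, differed by pair at the start, with 31.7, 43.5, 160 and 164 (0 h) and 9.89, 9.69, 65.7 and 71.9 (4 h), whereas the 96 h samples were all between 261 and 351. Rps6ka4, a kinase activated by MAP kinases, had means of 162, 58 and 384 at 0, 8 and 96 h, and the SH2 adaptor Shf had 170, 45.8 and 447. Camk2n1, an inhibitor of calcium/calmodulin-dependent kinase, had 103 at 0 h and 30.2 at 8 h and reached 330 at 48 h, before 170 at 96 h. The phosphodiesterase Pde1b had 98.8, 22.7 and 429 at 0, 16 and 96 h, and the phospholipase C-like Plcl2 had 134, 56.4 and 242. Pip5k1b, a lipid kinase that makes phosphatidylinositol bisphosphate, had 145, 55.5 and 255 at 0, 4 and 96 h, with a second low value of 73.6 at 24 h.

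Transcription factors and regulators of transcription came next. Epas1 (chr17:86753700-86833410), the hypoxia-inducible factor HIF-2alpha, had 431, 511, 475 and 536 (0 h), 637, 721, 721 and 711 (2 h), 39.6, 41.3, 60.9 and 40.8 (24 h) and 5282, 5010, 6734 and 6407 (96 h). All 4 samples were thus higher at 2 h than at 0 h, the mean at 24 h was 9.35% of that at 0 h, and at 96 h it was 12-fold that at 0 h. At 48 h the pairs of Epas1 differed, with 191 and 190 in replicates 1 and 2 and 509 and 561 in replicates 3 and 4. Mitf, a basic helix-loop-helix factor of melanocytes and lysosomal genes, had 364, 355, 504 and 516 (0 h), 49.2, 43.2, 16.2 and 35.9 (24 h) and 115, 96.8, 85.4 and 84.1 (96 h). It came back least, to 21.9% of its 0 h mean. Atf3, a stress-response bZIP factor, had 53.8, 50.3, 43.5 and 34 (0 h), 15.7, 15.5, 10.6 and 14.7 (16 h) and 405, 436, 702 and 603 (96 h), with 26.4 to 52.8 still at 48 h. Most of its return came after 48 h. Jdp2, a bZIP relative of ATF3, had means of 111, 32.9 and 176 at 0, 16 and 96 h, but its course was not smooth, with 37 at 4 h and 71.9 at 8 h, and its pairs differed.

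Id4, an inhibitor of basic helix-loop-helix factors and a target of BMP signalling, had 139, 115, 53.2 and 47.2 (0 h), 6.96, 12.2, 7.32 and 6.9 (16 h) and 66.9, 58.9, 110 and 112 (96 h). The pair that was high at 0 h was the lower one at 96 h. The SOX factors Sox13 and Sox21 were both lowest at 24 h. Sox13 had means of 287, 24.5 and 115 at 0, 24 and 96 h, was already at 29.1 at 8 h and stayed at 32 at 48 h. Sox21 had 65.3 at 0 h and still 66.2 at 8 h, then 20.4 at 24 h and 66.2 at 96 h. Zfp385a, a zinc finger protein tied to the p53 response, had 152, 57.5 and 236 at 0, 24 and 96 h.

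Genes of cell cycle arrest and stress responses included Cdkn1a, the cyclin-dependent kinase inhibitor p21 and the best known target of p53. It had 1250, 1295, 1719 and 1658 (0 h), 118, 128, 203 and 187 (24 h), and 901, 894, 1712 and 1808 (96 h). The mean at 24 h was 10.7% of that at 0 h, and 43.3% was reached at 2 h. At 96 h replicates 3 and 4 were near their 0 h values and replicates 1 and 2 were below theirs. Trp53i11, a p53-inducible membrane protein, had 74.5, 87.6, 140 and 138 (0 h), 180, 166, 225 and 213 (2 h), 15.7, 16.3, 7.99 and 6.04 (16 h) and 208, 168, 87.9 and 99.3 (96 h). Ei24, an endoplasmic reticulum protein induced by p53, had a shallow and long dip, with means of 1107 at 0 h, between 474 and 535 from 2 to 24 h, and 1467 at 96 h.

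Ndrg1, a stress gene induced by hypoxia, had 96.6, 92.4, 69.3 and 56.7 (0 h), 106, 110, 106 and 101 (2 h), 12.6, 24.1, 13.2 and 11.4 (8 h), and 543, 529, 391 and 424 (48 h). It was higher at 48 h than at 96 h in every sample. Sat1, which acetylates spermidine, had 507, 431, 308 and 253 (0 h) and 1237, 1320, 829 and 826 (2 h), then 123, 132, 73.1 and 105 (24 h) and 1168, 1183, 1250 and 1327 (96 h). Its 2 h samples were all above its 0 h samples. Nuak2, an AMPK-related kinase, had means of 71.5, 16.9 and 50.4 at 0, 24 and 96 h, and Optn, an autophagy receptor, had 189, 48.6 and 133. Trap1a, a tumour rejection antigen gene on chromosome X, had means of 2306, 529 and 1404 at 0, 16 and 96 h.

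Genes of the cell surface, the matrix and the actin cytoskeleton are given next. Adam19, a membrane metalloprotease, had 703, 1091, 1038 and 1122 (0 h), 85.2, 88.8, 128 and 112 (16 h) and 3245, 3305, 3872 and 3698 (96 h). The 24 h samples, 98.2 to 116, lay within the range of those at 16 h. Pdpn, the mucin-like protein podoplanin, had 35.9, 34.6, 95.9 and 98.2 (0 h), 7.83, 5.7, 14.6 and 11.2 (16 h) and 2641, 2758, 2885 and 3042 (96 h). Cemip, which takes part in breaking down hyaluronan, differed by pair more than most: it had 23.5, 27.2, 196 and 204 (0 h), 157, 175, 730 and 758 (2 h), 12.2, 16.3, 35.3 and 23.3 (16 h) and 3371, 3194, 3869 and 3473 (96 h). Its depth was 0.66 in replicates 1 and 2 and 2.58 in replicates 3 and 4. Hyal2, a hyaluronidase, had means of 496, 160 and 397 at 0, 24 and 96 h. Tgm2, the crosslinking enzyme transglutaminase, had 26.2, 39.4, 157 and 166 (0 h), 12, 12.5, 2.03 and 3.26 (24 h) and 230, 222, 55.2 and 61.5 (96 h). The pairs of Tgm2 crossed over, and its depth was 1.1 in replicates 1 and 2 and 3.12 in replicates 3 and 4. Lgals3, the galectin that binds beta-galactosides, had 170, 156, 89.5 and 102 (0 h), 294, 300, 421 and 393 (2 h), 33.6, 23.8, 24.4 and 26.9 (24 h) and 157, 139, 50.2 and 38.8 (96 h).

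The epithelial and adhesion genes of this paragraph were all lowest at 24 h, in a grouping made after the values were seen. Parvb, a gene of integrin adhesions given below, was lowest at 16 h. Cldn7, a tight junction claudin, had 51.1, 49.6, 54.8 and 39.7 (0 h), 19.2, 38.2, 0 and 7.34 (24 h) and 86, 70.5, 66.5 and 86 (96 h). Its 24 h samples spread from 0 reads in replicate 3, a library of 3844937 reads, to a value close to that of 0 h, and its depth was 0.77 in replicates 1 and 2. St14, the epithelial membrane protease matriptase, had 814, 811, 1397 and 1364 (0 h), 267, 249, 242 and 236 (24 h) and 569, 481, 849 and 795 (96 h). Its pairs differed at both ends and met at 24 h. Lad1, an anchoring filament protein, had means of 234, 95.4 and 475 at 0, 24 and 96 h, and Inava, which stabilises cell junctions, had 89.2, 18 and 106. Ncam1, the neural cell adhesion molecule, had 108, 12.2 and 52.6.

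Regulators of actin and focal adhesions followed. Fblim1, a filamin-binding LIM protein, had 2222, 2828, 2583 and 2667 (0 h), and 2685, 2644, 2435 and 2485 (2 h). It was at 251, 227, 195 and 179 (24 h) and at 710, 670, 818 and 810 (96 h), 29.2% of its 0 h mean. Myof, a ferlin of membrane repair, had 622, 793, 1195 and 1197 (0 h), 2408, 2285, 4074 and 4226 (4 h), 227, 224, 238 and 249 (24 h) and 1229, 1230, 1374 and 1309 (96 h). The 4 h samples of Myof were all above its 0 h samples, so the gene went up before its low point. Parvb, a parvin of integrin adhesions, had means of 735, 294 and 3137 at 0, 16 and 96 h, and the LIM protein Csrp2 had 904, 304 and 2024. Cald1, the actin-binding caldesmon, had 733, 179 and 1406 at 0, 24 and 96 h. Limch1, an activator of non-muscle myosin, had 78.7, 25.6 and 578 at 0, 8 and 96 h, with a depth of 2.51 in replicates 1 and 2 and of 0.75 in replicates 3 and 4. Lcp1, the actin bundler L-plastin, had 184, 12.1 and 61.8 at 0, 24 and 96 h.

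The formin Fhod3 had 175, 158, 59.6 and 75.5 (0 h), 36.6, 26.7, 14.4 and 10.4 (4 h) and 167, 182, 213 and 165 (96 h). Replicates 1 and 2 of Fhod3 were above replicates 3 and 4 from 0 to 24 h, and the 4 h samples lay below both ends within each pair. Frmd4a, a FERM domain scaffold of cell polarity, had means of 466, 112 and 1367 at 0, 8 and 96 h. The GTPases Rac3 and Rab6b, of actin and of Golgi traffic, had 94.7, 21.5 and 111 and 57.9, 9.91 and 118 at 0, 16 and 96 h. Mcc, a regulator of Wnt signalling and cell migration, had 224, 269, 181 and 178 (0 h), 4.8, 6.26, 6.09 and 4.08 (24 h) and 75.3, 64.2, 84.1 and 70.9 (96 h). Its mean at 24 h, 2.49% of that at 0 h, rested on as few as 3 reads, and at 48 h it was still 2.98%.

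Metabolic genes included Insig1, the endoplasmic reticulum protein that holds back the sterol sensor of SREBP. It had 841, 731, 801 and 674 (0 h), 269, 257, 279 and 266 (4 h) and 1469, 1460, 1359 and 1396 (96 h). The 4 h samples were close to each other and below those of every other time point, and the return was in 2 steps, with 325 to 653 from 8 to 24 h and 858 to 1488 at 48 h. Cdo1, cysteine dioxygenase, had 338, 281, 469 and 429 (0 h), 16.8, 30.7, 22.3 and 25.3 (24 h) and 229, 242, 261 and 222 (96 h). Marc2, a mitochondrial amidoxime-reducing enzyme, had means of 1839, 558 and 1955 at 0, 16 and 96 h, with SDs of 248, 40.4 and 162. Aldh4a1, which works in proline breakdown, had 328, 67.4 and 162 at 0, 16 and 96 h, and the epoxide hydrolase Ephx1 had 108, 21.2 and 57.4. The xylulose reductase Dcxr had 113, 41.8 and 259 at 0, 8 and 96 h, and Hlcs, which attaches biotin to carboxylases, had 90.7, 35.4 and 116 at 0, 4 and 96 h.

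Transporters and channels were Slc27a3, Slc16a9, Flvcr2, Ryr2, Cachd1 and Cbarp. Slc27a3, of the fatty acid transport family, had means of 331, 92.1 and 294 at 0, 4 and 96 h and stayed between 92.1 and 133 from 2 to 24 h. Slc16a9, of the monocarboxylate transporter family, had 69, 70.7, 138 and 130 (0 h), 7.07, 8.93, 29.6 and 29.6 (8 h) and 99.7, 115, 84.1 and 68.1 (96 h), with the pairs in opposite order at the ends. Flvcr2, a choline and haem transporter, had 116 at 0 h and 128 at 8 h, then 15.3 at 24 h and 78.2 at 96 h. Ryr2, a calcium release channel, had 70.9, 18.9 and 228 at 0, 24 and 96 h. The calcium channel proteins Cachd1 and Cbarp had 400, 131 and 431 at 0, 8 and 96 h and 95.6, 30.8 and 77.7 at 0, 24 and 96 h.

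Enzymes that build sugar chains were also present. St6galnac3, a sialyltransferase, had 63.5, 67.9, 76.6 and 90.7 (0 h), 12.9, 17, 19.2 and 14.7 (4 h), 279, 309, 246 and 233 (48 h) and 122, 148, 114 and 139 (96 h). All 4 samples were higher at 48 h than at either end. The N-acetylglucosaminyltransferases B3gnt3 and Gcnt4 had means of 92.8, 26.7 and 458 at 0, 8 and 96 h and 94.1, 20.9 and 65 at 0, 24 and 96 h. Ndst1, of heparan sulphate synthesis, had 287, 77.4 and 217 at 0, 24 and 96 h.

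The remaining genes have other or little known roles. Ttc7, a scaffold of the phosphatidylinositol 4-kinase complex, had 46.9, 46.9, 61.3 and 94.4 (0 h), 9.89, 9.69, 15.2 and 18.2 (4 h) and 290, 273, 292 and 242 (96 h), with higher values at each time point from 8 h on. Ldlrad3, with a low-density lipoprotein receptor domain, had means of 221, 72.7 and 529 at 0, 4 and 96 h, and the RING ubiquitin ligase Rnf157 had 48.3 and 15.9 at 0 and 4 h, 291 at 48 h and 137 at 96 h. Means at 0, 4 and 96 h were 43.3, 14.1 and 74.1 for Fignl2 and 115, 43.5 and 108 for Scrn2. The samples of Fignl2 were 22.1, 30.6, 46.7 and 73.7 (0 h) and 6.92, 2.42, 28.1 and 19.1 (4 h), where replicate 2 had 1 read. Its 4 h samples overlapped those at 0 h and lay below them only within each pair. At 0, 8 and 96 h the means were 164, 30.8 and 96 for 1700007K13Rik. At 0, 16 and 96 h, Oaf had 69.4, 15.2 and 103, the protease gene Ctsf had 81.5, 29.2 and 91.3, and A730049H05Rik had 43.1, 8.27 and 143. For A730049H05Rik, 36.9% of the exon bases are also exon of Adamts9 on the other strand, with a highest mean of 6402. At 0, 24 and 96 h, S100a13, a calcium-binding protein, had 89.7, 26.2 and 143, Fam102a had 905, 345 and 998, and the peptide-trimming enzyme Erap1 had 75, 17.1 and 48.2. Exons are also shared with a gene on the other strand for Erap1 (Cast, 11.5% of exon bases), Tgm2 (Rprd1b, 8.03%) and Cbarp (Stk11, 4.64%), and whether reads were counted by strand is not given in the sources used here.

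The 96 h and 0 h levels were compared with limma on log2(normalized count + 1) over 15227 genes, which included all 85. The selection used both means, each of which had to reach 5.5 and lie 1.2 above the low point, and barred genes that were lowest at 96 h. The counts over the 85 genes are therefore descriptions, and nothing is read from their distance to those over all genes, while the order of the 2 ends within a gene was not set. At FDR < 0.1, 42 of the 85 genes were higher at 96 h (49.4%), where 38% of all tested genes were, and 19 were lower (22.4%), where 38.5% of all were. When each pair of replicates was averaged first, 36 were higher and 11 lower. With a change of at least 4-fold as well, 12 genes were higher (14.1%, against 9.28%) and 1, Mitf, was lower (1.18%, against 10.3%). The median log2 fold change was 0.6 in these genes and -0.03 in all tested. Scaling to total reads in place of the deposited size factors moved the median of all genes by -0.26. Then 36 members were higher and 26 lower. Of all tested genes called in either direction, the part called higher went from 49.7% to 37.1%. Of the members called in either direction, it went from 68.9% to 58.1%. Within replicates 1 and 2 alone 48 members were higher and 18 lower, and within replicates 3 and 4 alone 44 and 22. For these fits and the averaged one, the shares of all tested genes are not given here.

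The genes that rose most from 0 to 96 h were Cemip (log2 fold change 5.58, SE 0.79, adjusted p = 2.3e-07, limma), Pdpn (5.57, SE 0.30) and Islr2 (4.91, SE 0.47). Gas6 rose by 3.59 (SE 0.28), Epas1 by 3.58 (SE 0.22), Atf3 by 3.52 (SE 0.35) and S1pr1 by 2.45 (SE 0.52). Adam19 rose by 1.86 (SE 0.17), Lif by 1.51 (SE 0.25) and Insig1 by 0.90 (SE 0.15). Mitf fell by 2.17 (SE 0.22, adjusted p = 2.9e-10, limma), Fblim1 by 1.77 (SE 0.12) and Mcc by 1.5 (SE 0.27). Kit was higher at 96 h by 0.75 (SE 0.32, adjusted p = 0.04, limma), and its call was lost on scaling to total reads (0.48) and without replicate 1 (0.59) or 2 (0.62). Fhod3 was higher by 0.77 (SE 0.41, adjusted p = 0.093, limma), which did not pass without replicate 3 (0.42) or 4 (0.65) or on scaling to total reads (0.51). For 24 genes no difference was called. Among these, the 95% interval of the log2 difference ran from -0.07 to 0.25 for Marc2, from -0.70 to 0.25 for Cdkn1a (called lower, by -0.22, with the replicate number as a block), from -0.68 to 0.82 for Id4 and from -0.59 to 1.91 for Tgm2. Marc2 changed sign on scaling to total reads (-0.17), and Tgm2 did in replicates 3 and 4 alone (-1.46).

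**Figure D4:**
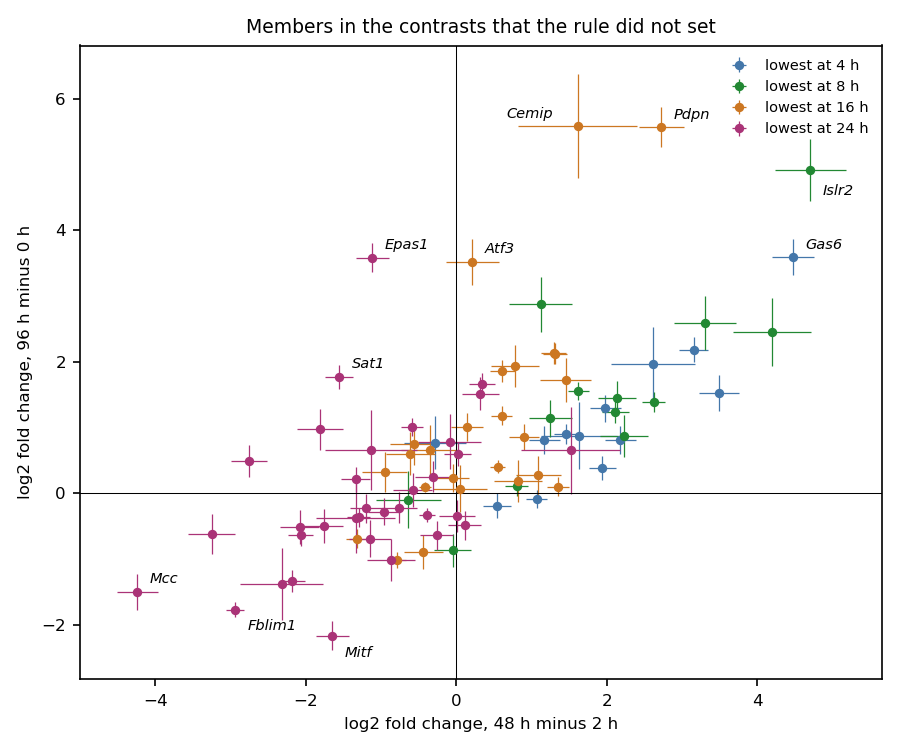
Log2 fold change of 96 h minus 0 h (y axis) against that of 48 h minus 2 h (x axis) for the 85 genes, with standard errors as bars and colours for the time of the lowest mean. Genes lowest at 4 or 8 h lie mostly to the upper right, those lowest at 24 h mostly to the left, and Epas1 and Sat1 lie at the upper left.

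The 48 h and 2 h samples entered the selection only through the lowest mean. At FDR < 0.1, 38 of 85 genes were higher at 48 h than at 2 h (44.7%), where 36.9% of all tested genes were, and 29 were lower (34.1%), where 38.3% were. Within replicates 1 and 2 alone the counts of members were 38 and 32, and within replicates 3 and 4 alone 39 and 32, without shares of all tested genes to set beside them. With the 4-fold threshold 13 were higher (15.3%, against 8.5%) and 8 lower (9.41%, against 7.65%). The split followed the time of the lowest mean, which is a description, since the genes were grouped by that time. At 2 h the median difference from 0 h was -0.8 in genes lowest at 4 h and -0.24 in those lowest at 24 h. The reason for the split was not tested. Of the 13 genes lowest at 4 h, 12 were higher and the other, Fhod3, was not called (-0.28, SE 0.41), with a median log2 fold change of 1.94. Of the 34 lowest at 24 h, 2 were higher, Ryr2 and Cldn7 (a call lost without replicate 4), and 25 were lower, with a median of -1.15. Islr2 rose by 4.70 (SE 0.47), Gas6 by 4.47 (SE 0.28) and S1pr1 by 4.19 (SE 0.52) from 2 to 48 h. Mcc fell by 4.24 (SE 0.27), Lgals3 by 3.25 (SE 0.31), Fblim1 by 2.94 (SE 0.12) and Myof by 2.75 (SE 0.24). Epas1 was lower at 48 h than at 2 h by 1.12 (SE 0.22, adjusted p = 4.6e-05, limma) and far higher at 96 h, so that most of its return came after 48 h.

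Whether the dip held in samples that did not choose it was tested by applying the same rule to 1 pair of replicates and testing in the other. The rule on replicates 1 and 2 chose 93 genes, of which 87 (93.5%) were lower in replicates 3 and 4 at the chosen time than both at 0 h and at 96 h at FDR < 0.1. Of all 15227 tested genes, each at its own lowest time between 4 and 24 h in replicates 1 and 2, 16.3% passed this test. The rule on replicates 3 and 4 chose 119 genes, of which 103 (86.6%) passed in replicates 1 and 2, against 15.5% of all. The genes compared did not have to meet the end levels or the depth, so nothing is read from the size of these gaps. The median log2 difference from 0 h in the tested samples was -1.56 and -1.63 in the chosen genes and -0.16 in all genes both times, and that from 96 h was -2.15 and -2.31. Of the 85 genes, 63 were chosen in replicates 1 and 2, 73 in replicates 3 and 4, 53 in both and 2, Grk3 and Fignl2, in neither. Of the 63, 62 passed in the other pair and the exception was Lcp1, which was lowest at 16 h in replicates 1 and 2 and differed from 96 h by -0.21 (adjusted p = 0.25, limma) in the other pair at that time. All 73 chosen in replicates 3 and 4 passed. The 85 genes were chosen on all 4 replicates, so these counts of 62 and 73 were favoured by that choice and are descriptions. The pairs gave median depths of 1.62 and 1.68, and the depth differed between them by at least 1 in 10 genes, most in Fst and Cldn7. A depth of 1.2 was reached by 66 of the 85 genes in replicates 1 and 2 and by 75 in replicates 3 and 4. Some of those given above by their means fell below 1.2 in 1 pair. Depths in the first and second pair were 1.72 and 0.87 for Parvb, 1.64 and 0.79 for Plcl2, and 2.66 and 1.13 for Lcp1. They were 0.75 and 1.53 for Cbarp, 0.92 and 1.57 for Lad1, and 0.96 and 1.43 for Fam102a. These are examples, and others given by their means, such as Camk2n1 and B3gnt3, also fell below 1.2 in 1 pair. Each test used the 2 libraries per time point of 1 pair, so its FDR rests on the spread within that pair. That spread was smaller than between pairs (median chi-square over degrees of freedom 1.53 within and 10.3 between). These 2 pairs share the cell line, the medium and the course of Dox, and the test shows how the dip repeats between libraries only.

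Of 25 lists of pathways and states, 7 held 8 of the 85 genes and 18 held 0. The 8 were 2.33% of the 344 list genes tested, where 0.558% of all tested genes were members, and 3.17% of the 252 with both end levels met, against 0.933% of all. These were Insig1 in the sterol list, Atf3 in the ATF4 list, Cdkn1a among p53 targets, Id4 in the BMP list, Jag1 in the Notch list, Ndrg1 in the hypoxia list, and Cldn7 and St14 among epithelial junction genes. The lists were chosen with earlier results of these data known, so nothing is read from the shares of these 8 genes. The rest of each list did not follow a single course. Of 24 sterol genes tested, 12 were higher and 4 lower at 48 h than at 2 h, and 3 higher and 20 lower at 96 h than at 0 h, so that Insig1 was 1 of the 3. Of 17 hypoxia and glycolysis genes, 12 were higher and 4 lower at 96 h than at 0 h, with Ndrg1 among the higher. Of 17 p53 targets, 8 were higher and 5 lower at 96 h, and Cdkn1a was in neither group. Of 21 ATF4 genes, 15 were lower and 3 higher at 96 h, Atf3 among the 3. Of 23 epithelial genes, 15 were higher and 6 lower, with St14 lower (-0.69, SE 0.28) and Cldn7 not called (0.65, SE 0.66). The naive pluripotency list, with 16 genes tested, had none of the 85, and 14 were lower and 1 higher at 96 h. Of the PrE genes the study took from published embryo data, 4 of 571 tested (0.701%) were among the 85, Cldn7, Gas6, Insig1 and Nmb, and of its Epi genes 3 of 214 (1.4%), Adam19, Ei24 and Pdpn, where 0.558% of all tested genes were. Over genes with both end levels met, these shares were 0.826% (PrE) and 1.76% (Epi), against 0.933% of all. Ei24 was higher at 96 h than at 0 h by 0.40, a call lost on scaling to total reads (0.14).

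All 85 genes are protein-coding in GENCODE M21 on GRCm38. Their largest numbers were on chromosomes 2 (9 genes), 1, 9 and 11 (7 each), and 10.6% of them and 8.03% of all genes with both end levels met lay on chromosome 2. Chromosomes 1, 9 and 11 each held 8.24% of members, against 5.46%, 5.75% and 8.24% of all genes with both end levels met. There were 8 pairs of members less than 1000000 bases apart, and the number to expect among as many genes was not worked out. The closest was Rac3 (chr11:120721470-120723969) and Dcxr (chr11:120725399-120727281), with 1430 bases between their ends and low points at 16 and 8 h. By symbol, 1 gene was a Zfp gene (1.18%, against 2.96% of all genes with both end levels), 2 were Slc genes (2.35%, against 1.68%), 1 was a Rab gene (1.18%, against 0.615%), 2 were Rik genes (2.35%, against 1.6%), and 0 were Tmem genes (against 1.2%) or Gm genes (against 0.296%).

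At the threshold, the genes just inside had depths of 1.204 (Aldh4a1), 1.211 (Ei24) and 1.211 (Plcl2), and those just outside 1.189 (Ints6l), 1.188 (Rbm38) and 1.182 (Itgb5). Around them, 1736 genes with the 0 h level met were at some time at least 1.2 below 0 h. The lowest mean was at 96 h in 1153 of these, at 48 h in 269, at 2 h in 54 and between 4 and 24 h in 260, of which 185 met the level at 96 h and 85 of these also the margin.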

How the data were processed

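Bulk RNA-seq (stranded poly(A) libraries, single-end reads) was analysed from 32 samples, 4 at each of 8 time points. Trimming (cutadapt 2.7), alignment on GRCm38.p6 (HISAT2 2.1.0) and counting per gene were done by the authors, the last with featureCounts (Subread 1.6.4), per the submitters' processing notes and the methods. The authors deposited variance-stabilized log2 values from DESeq2, with 1.58 for no reads. Undoing the transformation gave counts over a size factor per sample, and 100% of values were whole reads within 0.001. Members were found on the deposited values. The members, gene lists and tests were chosen with earlier results of these data known.

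The 15227 genes that reached a normalized count of 10 in 4 or more samples were fitted by limma 3.58.1 (trend, R 4.3.3), as log2(normalized count + 1), over all 32 samples, and Benjamini-Hochberg adjustment was applied per comparison (FDR < 0.1, and 4-fold as in the study). The procedure was tested on simulated data that had no difference between the pairs of replicates. That test therefore does not cover the spread between pairs seen here. The authors' DESeq2 test needs raw counts and was not repeated. No column was left unmatched. Replicates carry the numbers of their titles. Samples of equal number correlated no better in their deviations than the other sample of the pair (mean 0.196 for both), so numbers do not pair samples. Genes named by rule were the 5 deepest at each lowest time, the 3 largest rises and falls from 0 to 96 h, the 3 nearest to the threshold on each side, up to 6 members of each list and the 3 highest at 0 h. All other members were added afterwards by role. Promoters were matched by symbol to RefSeq windows on GRCm38.p6 (first listed start), and coordinates are GENCODE M21, whereas the authors counted on GENCODE m18. PCR copies were not marked, so read numbers speak to counting error alone.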

Additional observations from a re-analysis of the deposited data

Results flagged for a closer look

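In 48 groups of 4 samples (12 genes at 0 h, the lowest time, 48 h and 96 h), 1 sample stood apart by Dixon's ratio, where chance flags about 1 in 20 groups. It was Epas1 at 24 h, where replicate 3 had a normalized count of 60.9 and the other samples 39.6 to 41.3 (ratio 0.922). That library had 3844937 reads. All 4 values lay below those at 0 h.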

How the results depend on the processing

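The number of members was 140 at a depth of at least 1.0 and 48 at a depth of at least 1.5, and 85 to 119 under the other definitions (87 to 96 without 1 replicate). Of the 85 genes, 75 remained on scaling to total reads, 63 with replicates 1 and 2 only, 73 with replicates 3 and 4 only, and 76 to 79 without 1 replicate. Members lower at 96 h than at 0 h numbered 11 in place of 19 when each pair of replicates was averaged, an alternative chosen after seeing the data that leaves fewer values. With the 4-fold threshold they were 2 in place of 1 on scaling to total reads and in replicates 3 and 4 only, and 0 in replicates 1 and 2 only. The other counts, 151 of 157, stayed within 1.5 times. With the replicate number as a block, 46 members were higher and 20 lower at 96 h, 38 and 31 at 48 h against 2 h, and 87 and 103 genes passed between pairs. The blocked fit called Cdkn1a lower at 96 h (-0.22) and Kit lower at 48 h (-0.56). Leaving out 1 replicate gave 38 to 44 higher and 14 to 18 lower at 96 h, and could not be run between pairs, where no spread would remain. These counts of members are not set beside the shares of all tested genes under the same settings. Directions changed for 10 of the genes named by rule, and the cause was not tested. At 96 h against 0 h, without 1 replicate, Slc16a9 had -0.37 to 0.17, Trp53i11 -0.07 to 0.64, Id4 -0.32 to 0.44 and Tgm2 -0.15 to 1.38. In replicates 1 and 2 only, Slc16a9 had 0.61, Id4 -1.0, Nmb -0.38 and Marc2 -0.01, and in replicates 3 and 4 only Trp53i11 had -0.57, Cdkn1a 0.06, Tgm2 -1.46 and Jag1 0.36. On scaling to total reads Id4 had -0.19 and Marc2 -0.17. At 48 h against 2 h, Fhod3 had 0.41, Id4 -0.31 and Atf3 -0.46 in replicates 3 and 4 only, and Id4 -0.00 with limma-voom. Without 1 replicate Id4 had -0.20 to 0.19, Atf3 -0.07 to 0.45 and Jag1 -0.25 to 0.16. Jag1 had -0.02 on total reads and with limma-voom, and -0.43 in replicates 1 and 2 only. Low counts limit the dips of S1pr1, Islr2, Mcc, Tgm2, Cldn7 and Fignl2, among others. At 4 h, the fewest reads in a sample were 3 for Rnf157, 4 for Ttc7 and 4 for Grk3. The smallest library was replicate 2 at 4 h, with 3190108 reads.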
